A study of Mus musculus with 51 samples.

Results

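Fatty acid uptake and oxidation was followed through 9 genes, Fabp5, Cpt1a, Cpt2, Acadl, Acadm, Acadvl, Hadha, Hadhb and Acaa2, chosen by symbol and covering uptake, entry into mitochondria and the steps of beta-oxidation. All 9 were present among the 10560 genes of the untreated table and among the 13458 genes of the checkpoint-treated table. The genes were measured in CD8+ T cells sorted from mouse mammary tumors grown from AT3-OVA, a mammary carcinoma line that carries the model antigen ovalbumin. Tumor cells were divided into CD103+CD69+ cells (DP), CD103-CD69+ cells (SP) and CD103-CD69- cells (DN). CD103 is an integrin subunit that binds E-cadherin and CD69 a surface protein that holds T cells in tissue. Untreated tumors gave 13 DP libraries (3, 4, 3 and 3 at weeks 1, 2, 4 and 6), 11 SP libraries (3, 3, 2 and 3) and 10 DN libraries (2, 3, 3 and 2). Spleens gave 3 libraries each of the subsets labelled Naive, CM and EM, with the word control in their titles. Tumors under Immune Checkpoint Blockade (ICB) gave 3 DP, 3 SP and 2 DN libraries on day 40. Every sample, spleen included, carries the AT3-OVA label. Mouse strain, age and sex, the blocking agents, and whether a replicate is 1 animal or a pool are not given in the sources used here.

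A long-chain fatty acid that enters a cell is carried through the cytosol by binding proteins such as Fabp5 and is activated to its coenzyme A ester. Cpt1a on the outer mitochondrial membrane swaps coenzyme A for carnitine, the controlled step of entry, and Cpt2 on the inner membrane reverses the exchange. Inside, chain-length specific acyl-CoA dehydrogenases (Acadvl, Acadl and Acadm for very long, long and medium chains), the trifunctional protein of Hadha and Hadhb, and thiolases such as Acaa2 shorten the chain. Uptake and oxidation of exogenous lipid have been linked to the upkeep of memory and tissue-resident CD8+ T cells, with Fabp4 and Fabp5 studied most in skin.

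The values are log2 values normalized by the authors, and their level says little about abundance: Fabp5 averaged -10.4 and Gapdh, an abundant transcript, 4.50 in the untreated table, against 4.06 and 11.3 in the ICB table. Only differences within a gene and a table were therefore compared. A gene was called where limma's moderated test gave a p below 0.05 once adjusted by Benjamini-Hochberg across every gene of its table. Checks of the sort showed Itgae, which encodes CD103, highest among tumor subsets in DP, with a median of 14.66 against 13.36 in SP and 11.72 in DN, although the subsets overlapped. Cd69 had medians of 0.38 in DP and 0.32 in SP against -0.47 in DN. Its ranges overlapped too, at -1.28 to 1.06 in DP, -0.21 to 1.31 in SP and -0.95 to 0.44 in DN. Under ICB, Itgae was 14.48 to 14.50 in DP, 11.81 to 12.54 in SP and 9.96 to 10.10 in DN, without overlap, and Cd69 was 12.16 to 12.28 in DP. ICB SP libraries had Cd69 at 11.86 to 11.98, overlapping the DN libraries at 11.92 and 11.96, so that Cd69 RNA did not set SP above DN there. Naive spleen cells stood apart by low Cd44, an activation marker, at -0.39 to -0.10 where all other groups had 2.15 or more. In the 3 week 1 DP libraries a T-cell identity score, the mean of 15 gene-centred markers, was -0.71 to -0.70, and no other untreated library was below -0.20. Week 4 DN replicates 1 and 2 were unusually alike, with a median difference between genes of 0.0191 where the next closest pair of a group had 0.0882. Without counts, sampling noise could not be tested, and averaging these libraries into 1 changed no call among the 9 genes. The numbers in the library codes run from 5 to 42, 46 to 61 and 72 to 75. The first run holds 11 DP, 10 SP and 0 DN tumor libraries, the second 2 DP, 1 SP and 7 DN, and the third 3 DN, so that the code run and the DN subset can hardly be told apart.

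Across 15 comparisons, 21 of 135 gene and comparison pairs were called, or 15.6%, and 14.5% of all gene and comparison pairs were called in the same fits, so that the members as a list were called about as often as other genes. Of the 21, 8 were called under every alternative processing that could be run for them, and 13 kept their call when each library was left out in turn. Calls went in both directions.

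**Figure D1:**
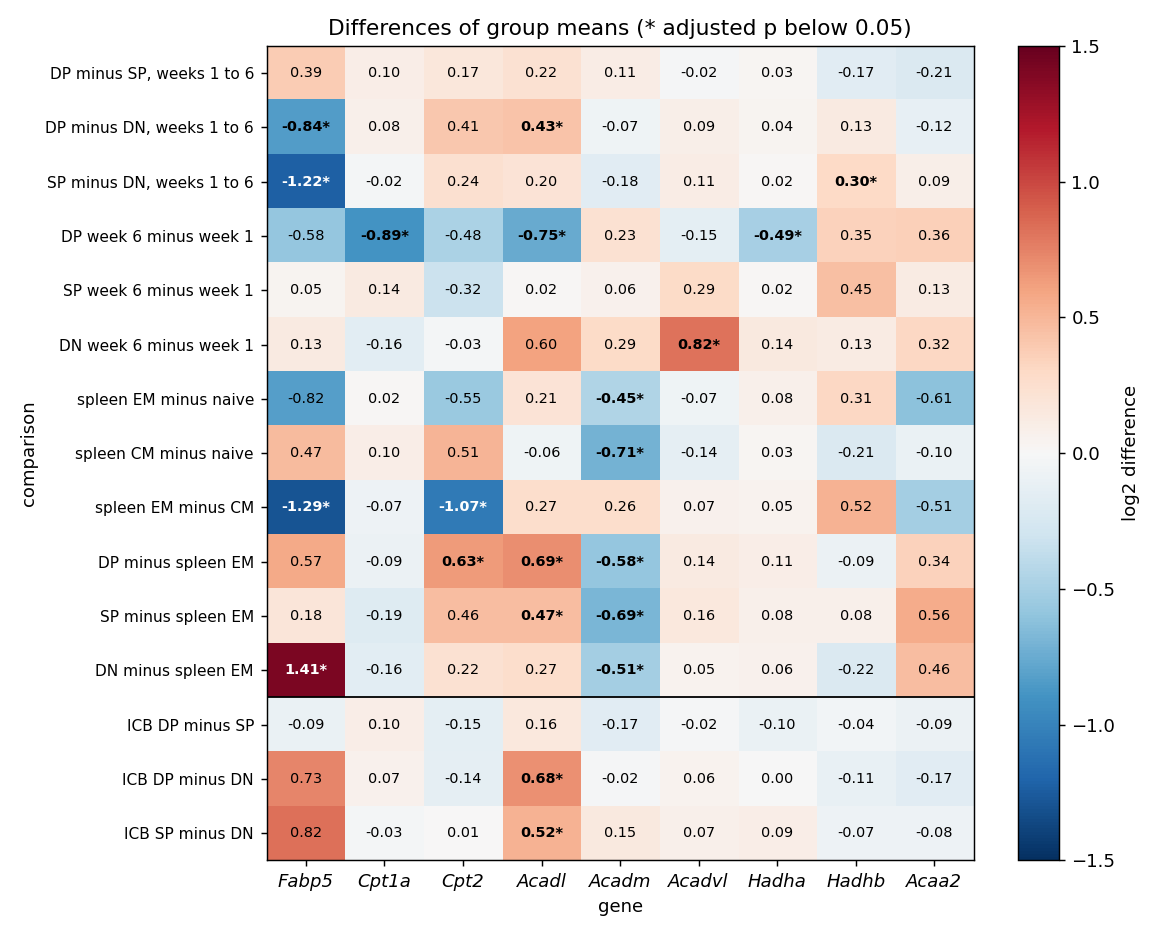
Log2 differences of group means for each of the 9 genes (columns) in 15 comparisons (rows), the 12 untreated ones above the line and the 3 ICB ones below it; color runs from -1.5 (blue) to 1.5 (red), and an asterisk and bold type mark an adjusted p below 0.05. Calls gather in Fabp5, Acadl and Acadm, whereas Acaa2 has none.

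Fabp5, the fatty acid binding protein of the set, was lower in both CD69+ tumor subsets than in DN cells. The gene lies on chromosome 3 at 10012548 to 10016607 on the plus strand (GRCm38, GENCODE M21). Its deposited values in DN ran from -10.78 to -9.19 with a median of -9.50 (10 libraries). Those of SP ran from -11.85 to -9.99 with a median of -10.72 (11 libraries), and those of DP from -11.76 to -9.78 with a median of -10.49 (13 libraries). The subsets overlapped, through 2 of the 3 week 2 DN libraries at -10.78 and -10.46. With weeks weighted equally, Fabp5 was lower in SP than in DN by a log2 difference of -1.22 ± 0.21 (SE; limma adjusted p = 0.000481), where 19.4% of all genes were called in either direction and 8.32% lower. In DP against DN the difference was -0.84 ± 0.21 (limma adjusted p = 0.00634), where 19.5% of all genes were called and 10.7% lower. In bulk RNA of sorted cells, fewer cells that express a gene and less RNA of it per cell cannot be told apart.

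The sign was the same at each week. DP minus DN was -0.51, -0.78, -0.85 and -1.22 at weeks 1, 2, 4 and 6, and SP minus DN was -0.93, -1.21, -1.74 and -1.02. SP and DN libraries did not overlap within any week, and DP and DN libraries overlapped at week 2 only. Because DN libraries are absent from the first code run, a comparison within a run rests on few libraries. Within codes 46 to 61, week 2 held 1 DP library at -11.76 below 3 DN libraries at -10.78 to -9.46, and week 6 held 1 DP library at -10.28 and 1 SP library at -10.33 below 2 DN libraries at -9.38 and -9.35. With the code run as a term in the model the difference of Fabp5 kept its size, -0.87 for DP and -1.27 for SP against DN, but neither was called (limma adjusted p = 0.302 and 0.150), and the part of the run in the result cannot be told apart from that of the subset. DP and SP did not differ by the test (0.39 ± 0.20, limma adjusted p = 0.315), in a comparison where 3.48% of all genes were called and none of the 9.

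Among spleen cells Fabp5 was lower in EM than in CM. CM libraries had -9.62, -9.72 and -9.90, EM libraries -11.16, -10.55 and -11.42, and naive libraries -9.97, -10.92 and -9.78. The CM and EM values did not overlap, while 1 naive library lay within the range of EM. EM minus CM was -1.29 ± 0.39 (limma adjusted p = 0.0296), where 15.4% of all genes were called and 7.19% lower, and -0.79 under quantile normalization, still called. Without any 1 of the 3 CM libraries, or without EM replicate 1 or 3, it was not called, with limma adjusted p between 0.0523 and 0.119. DN tumor cells were higher than EM by 1.41 ± 0.32 (limma adjusted p = 0.00389; 20.6% of all genes called, 10.2% higher), a call that was also absent with the code run as a term (1.47, limma adjusted p = 0.113), and quantile normalization gave 0.71, still called. DP and SP against EM gave 0.57 ± 0.31 and 0.18 ± 0.31, neither called, and under quantile normalization the SP difference had the opposite sign and was called, at -0.61.

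Under ICB the order of Fabp5 was the other way round. DN libraries had 3.48 and 3.48, DP libraries 4.18, 4.19 and 4.25, and SP libraries 4.33, 4.36 and 4.22. Both DN libraries were below the other 6. The differences, 0.73 ± 0.30 for DP and 0.82 ± 0.30 for SP against DN, were not called (limma adjusted p = 0.194 for each). The ICB table has only 2 residual directions among 8 libraries, and because it was normalized apart from the untreated one the change of sign was not tested.

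**Figure D2:**
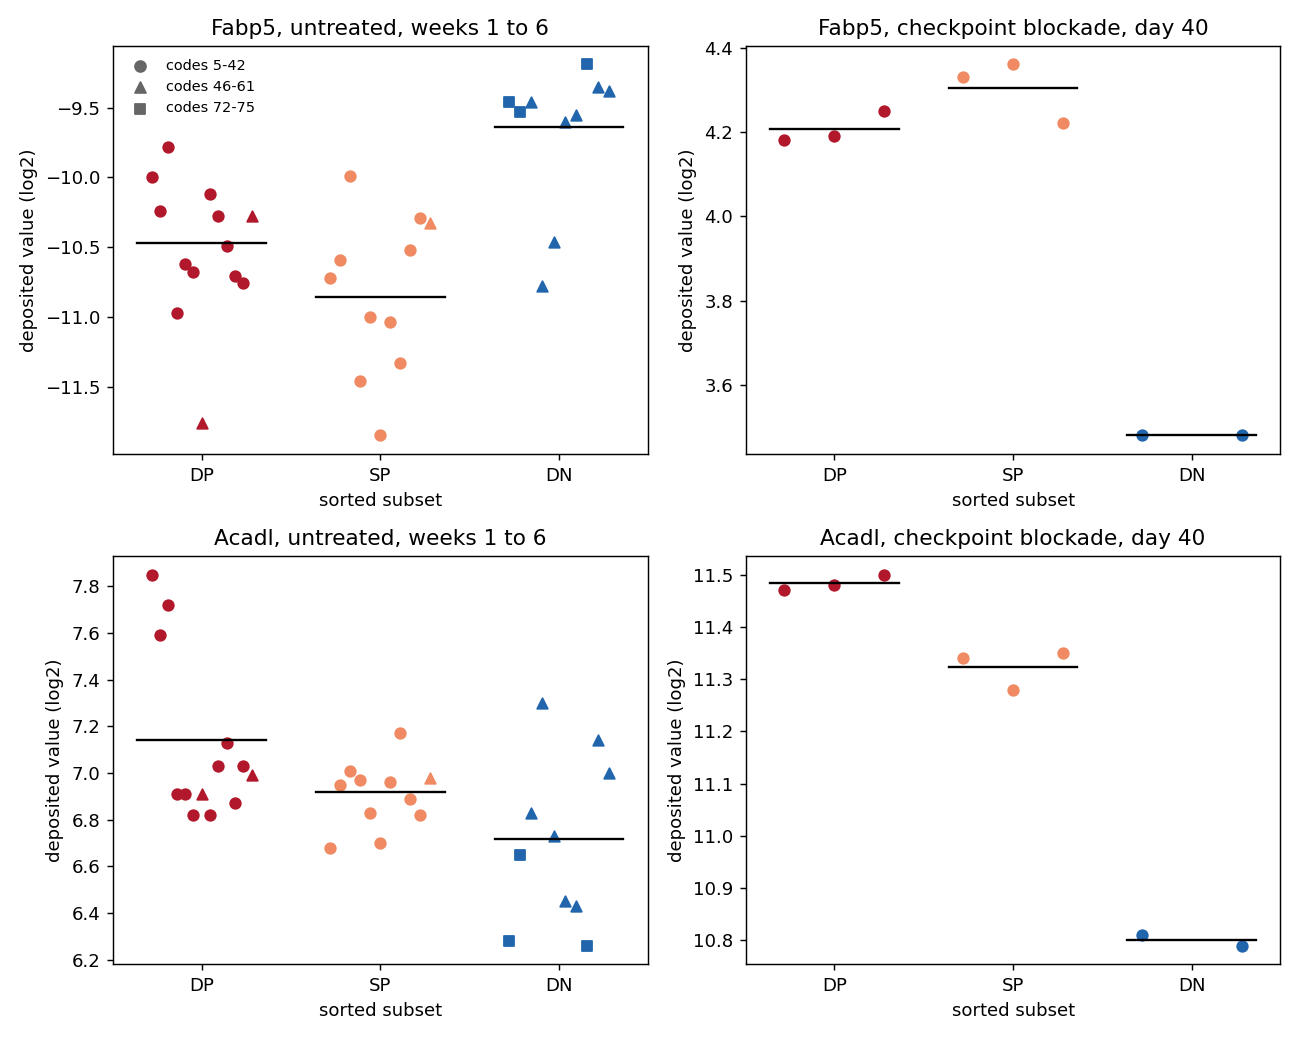
Deposited log2 values of Fabp5 (top) and Acadl (bottom) by sorted subset, in untreated tumors of weeks 1 to 6 (left) and in ICB tumors on day 40 (right). Each point is 1 library, and symbols in the left panels give the run of library codes. Bars are means of the week means on the left and means of libraries on the right. DN is the highest subset for Fabp5 on the left and the lowest on the right, while the 3 highest DP points of Acadl on the left are those of week 1; the levels of the tables cannot be compared.

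Other genes of uptake, binding and activation had 1 of 10 called in each comparison of tumor subsets, where 3.48% (DP against SP), 19.5% (DP against DN) and 19.4% (SP against DN) of all genes were called. Of 10 such genes in the untreated table, Slc27a3, a fatty acid transport protein with acyl-CoA synthetase activity, was the only one called in SP against DN, lower by -1.11 ± 0.23 (limma adjusted p = 0.00218), and the only one called in DP against SP, higher by 0.96 ± 0.22 (limma adjusted p = 0.0139). Acsl5, an acyl-CoA synthetase, was the only one called in DP against DN, at -0.20 ± 0.05 (limma adjusted p = 0.0106). Against spleen EM, where 13.8% of all genes were higher and 16% lower in DP, 3 of 10 were higher and none lower: Slc27a3 by 1.51, Slc27a1, another transport protein, by 1.39, and Acsl3, an acyl-CoA synthetase of lipid droplets, by 1.38. Within spleen, 4 of 10 were lower in EM than in naive cells and none higher, where 12% of all genes were lower, with Acsl3 at -2.78, Slc27a3 at -1.61 and Acsl1, a synthetase linked to oxidation, at -1.13. Under ICB, Lpl, a lipase that frees fatty acids from lipoproteins, was higher in DP than in DN by 2.97 ± 0.51 (limma adjusted p = 0.035). In that comparison, where 4.47% of all genes were higher, 10 of 12 myeloid markers were also higher, and macrophages are known to express Lpl; the part of myeloid cells in it was not tested.

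Cpt1a was the member with the clearest week 1 pattern, together with Acadl and Hadha. Cpt1a lies on chromosome 19 at 3322334 to 3385733 on the plus strand, Acadl on chromosome 1 at 66830839 to 66863277 on the minus strand, and Hadha on chromosome 5 at 30118304 to 30155162 on the minus strand (GRCm38, GENCODE M21). Because these 3 genes were high together in the same libraries, their RefSeq promoter windows (GRCm38.p6, 300 bases each around the annotated start, gene strand) are shown, at chr19:3323051-3323350, chr1:66863260-66863559 and chr5:30154931-30155230. Capitals mark the GC box, GGGCGG on either strand, a short motif that Sp family factors can bind.
Cpt1a: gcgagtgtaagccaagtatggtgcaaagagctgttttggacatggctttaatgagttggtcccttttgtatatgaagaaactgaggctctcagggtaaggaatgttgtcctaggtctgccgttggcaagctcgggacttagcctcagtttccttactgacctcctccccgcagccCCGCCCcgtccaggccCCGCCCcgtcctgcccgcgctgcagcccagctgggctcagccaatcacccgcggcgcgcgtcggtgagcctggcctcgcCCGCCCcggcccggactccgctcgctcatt
Acadl: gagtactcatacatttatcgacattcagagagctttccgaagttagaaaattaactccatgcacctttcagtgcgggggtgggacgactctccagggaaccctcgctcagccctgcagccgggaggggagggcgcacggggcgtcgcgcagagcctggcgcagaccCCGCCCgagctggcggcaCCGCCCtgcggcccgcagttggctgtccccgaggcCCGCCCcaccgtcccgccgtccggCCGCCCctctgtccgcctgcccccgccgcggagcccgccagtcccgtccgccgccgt
Hadha: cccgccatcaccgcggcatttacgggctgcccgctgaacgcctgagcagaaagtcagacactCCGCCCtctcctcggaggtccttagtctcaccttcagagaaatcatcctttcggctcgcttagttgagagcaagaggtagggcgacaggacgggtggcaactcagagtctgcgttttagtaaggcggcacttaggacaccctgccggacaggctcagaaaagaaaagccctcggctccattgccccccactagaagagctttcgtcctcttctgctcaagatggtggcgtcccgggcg
The windows hold 3, 4 and 1 GC boxes. The motif occurred in 35.7% of 32851 promoter windows and in 5 of the 7 members' windows in the table (Cpt1a, Cpt2, Acadl, Hadha and Hadhb), where Fabp5 and Acaa2 had no entry. The nuclear receptor motif AGGTCA was found on either strand in 16.3% of windows and in those of Cpt1a, Acadm and Acadvl. Its direct repeat with 1 base of any kind between the copies, a form bound by PPAR receptors, was in 0.0396% of windows and in none of the 7. Matches describe letters only and say nothing of binding.

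In DP cells Cpt1a, Acadl and Hadha were highest at week 1. Cpt1a had 5.19, 5.13 and 5.41 in the week 1 DP libraries, and the other 40 untreated libraries ran from 3.80 to 4.67. Acadl had 7.85, 7.59 and 7.72 there, and 6.15 to 7.30 in the other 40. Hadha had 5.22, 5.29 and 5.73, with its lowest value only just above the 5.22 of a week 2 SP library. All 3 week 1 DP libraries thus stood above every other untreated library for each of the 3 genes, spleen included.

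From week 1 to week 6 the 3 genes fell in DP cells. Cpt1a fell by 0.89 ± 0.16 on the log2 scale (limma adjusted p = 0.000339), Acadl by 0.75 ± 0.15 (limma adjusted p = 0.00115) and Hadha by 0.49 ± 0.13 (limma adjusted p = 0.00882), so that 3 of 9 members were called, all lower, where 25% of all genes were called and 9.37% lower. The median of the 9 differences was -0.48, against 0.07 over all genes. Hadha lost its call without week 1 DP replicate 3 (-0.34, limma adjusted p = 0.052) and when only the 6 libraries compared were fitted (limma adjusted p = 0.078). The fall lay between weeks 1 and 2: DP week 2 libraries had 4.09, 3.99, 4.22 and 3.93 for Cpt1a and 6.91, 6.91, 6.82 and 6.91 for Acadl. Week 6 minus week 2 gave 0.29 for Cpt1a, 0.077 for Acadl and 0.025 for Hadha, none of them called.

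The other tumor subsets did not show it. Week 1 SP libraries had 4.36, 4.47 and 4.28 for Cpt1a, 6.68, 6.95 and 7.01 for Acadl and 4.91, 4.95 and 4.96 for Hadha. Between weeks 1 and 6 none of the 9 genes was called in SP, where 2.72% of all genes were called. The change of DP differed from that of SP by -1.03 ± 0.22 for Cpt1a (limma adjusted p = 0.00745) and by -0.77 ± 0.22 for Acadl (limma adjusted p = 0.0308), where 8.12% of all genes passed the same test. Against DN the differences were -0.73 for Cpt1a, -1.36 for Acadl, -0.64 for Hadha and -0.97 for Acadvl, all called (limma adjusted p between 0.000647 and 0.0459), where 18.1% of all genes passed. Values of DN itself enter these differences: from week 1 to week 6 Acadvl rose in DN by 0.82 and was -0.15 ± 0.14 in DP (limma adjusted p = 0.464), and Acadl was 0.60 ± 0.19 in DN (limma adjusted p = 0.0619, not called). The DN libraries of weeks 1 and 6 carry codes of different runs, the third and the second, which meet in DN only at week 4. There Acadl was 6.26 in 1 third-run library and 6.43 and 6.45 in 2 second-run libraries. The part of the run in the differences of DP from DN was not tested. For SP against DN none of the 9 passed, where 4.66% of all genes did. The difference between DP and SP at week 1 also exceeded its mean over weeks 2 to 6, by 1.03 ± 0.18 for Cpt1a (limma adjusted p = 0.000973), 0.83 ± 0.18 for Acadl (limma adjusted p = 0.00425) and 0.59 ± 0.15 for Hadha (limma adjusted p = 0.0128), where 14.7% of all genes passed. Against DN the same excess at week 1 was 1.11 for Acadl, 0.85 for Cpt1a, 0.71 for Acadvl and 0.59 for Hadha, where 25.8% of all genes passed, and for SP against DN no member and 6.53% of all genes passed. The same DN libraries enter both tests against DN.

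Markers of other cells moved with the week 1 DP libraries. The tumor epithelium score, the mean of 6 measured gene-centred markers, averaged 2.66 in week 1 DP against 0.28 in week 6 DP, and 4 of the 6 markers fell, with Krt8, a keratin of simple epithelium, at -4.16. Of 15 T-cell identity genes 10 rose over the same weeks, with Cd8a at 1.63. In that comparison 25% of all genes were called in either direction and 9.37% were called lower. Week 1 SP libraries had an epithelium score of 1.97 and a T-cell identity score of -0.045, and their Cpt1a, Acadl and Hadha were not high. The part of tumor epithelium in the week 1 values was not tested. Adipocyte markers could hardly be read, as 1 of 8, Plin1, was measured.

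**Figure D3:**
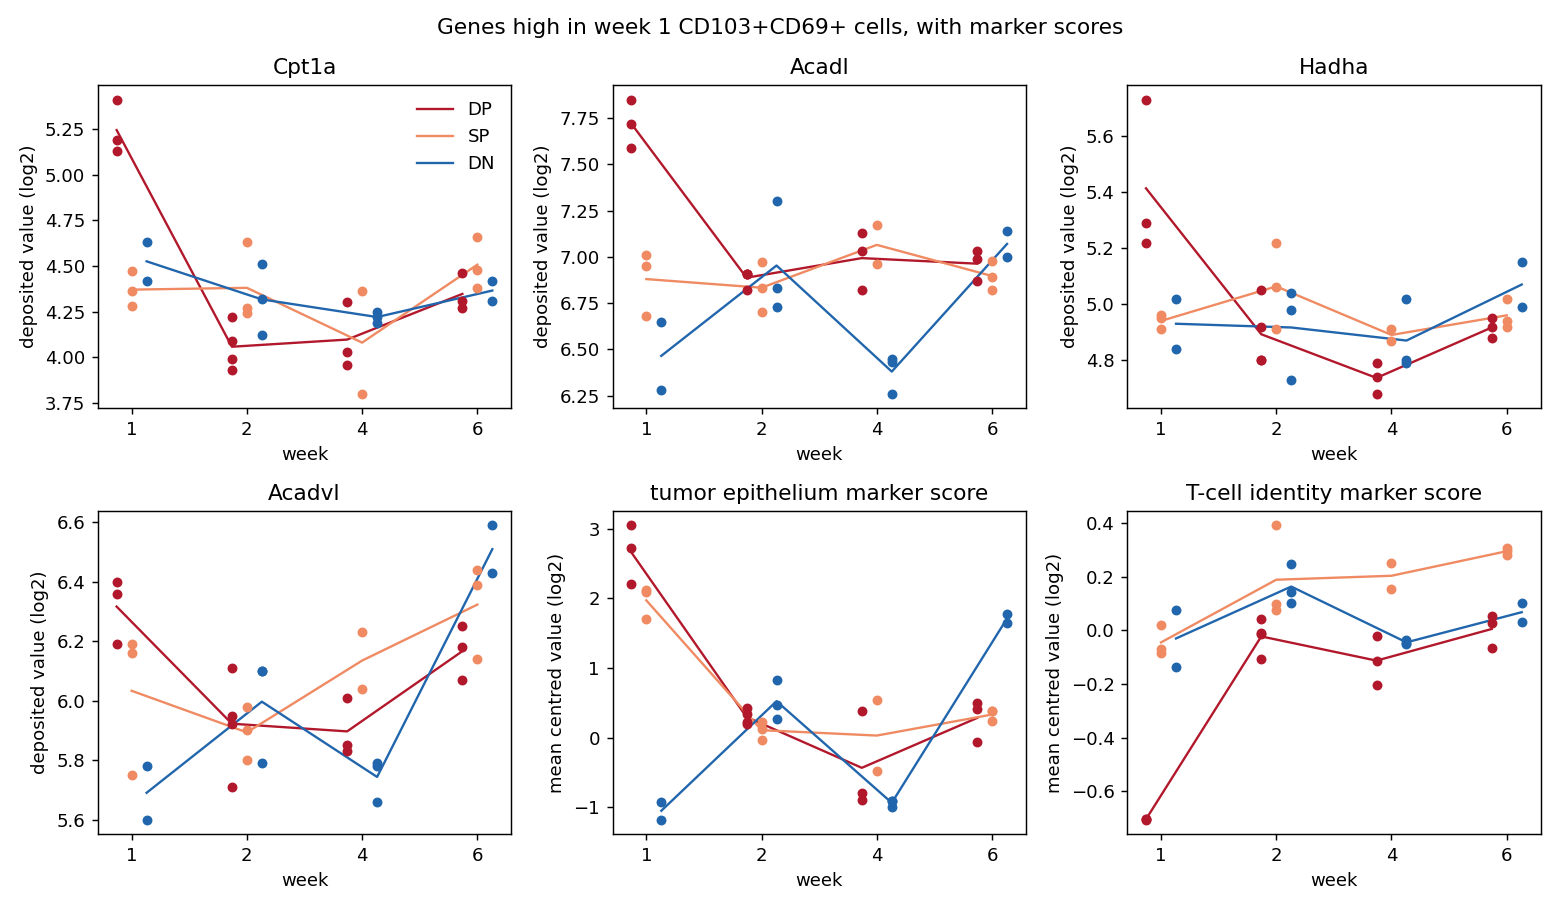
Deposited log2 values of Cpt1a, Acadl, Hadha and Acadvl, and mean gene-centred log2 scores of tumor epithelium and T-cell identity markers, by week and tumor subset; points are libraries and lines join group means. The 3 week 1 DP libraries are the highest for Cpt1a, Acadl and Hadha and have the lowest T-cell identity scores, and the epithelium score is high in week 1 DP, week 1 SP and week 6 DN.

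Other genes of the pathway were counted in DP cells over the same weeks, where 25% of all genes were called, and 9.37% were called lower. Of 15 other mitochondrial beta-oxidation enzymes, 2 were lower at week 6 than at week 1 and 1 higher: Acad10 at -1.23 ± 0.37 and Acads, the short-chain dehydrogenase, at -0.77 ± 0.22 fell, and Etfa, a subunit of the electron carrier that serves the dehydrogenases, rose by 0.47 ± 0.14 (limma adjusted p between 0.0123 and 0.0173). Among 11 regulators 3 fell and 1 rose, with Rxra, a partner receptor of the PPAR family, at -0.87, Sirt3, a mitochondrial deacetylase, at -0.79 and Tfam, which maintains mitochondrial DNA, at 0.67. Slc27a4, a fatty acid transport protein, was lower by -1.28, and Plin3, a coat protein of lipid droplets, by -1.40. Scd1, a desaturase of fatty acid synthesis, fell by 2.12. None of 6 other genes of the carnitine shuttle passed the test.

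Cpt2, the inner membrane carnitine transferase (chromosome 4, 107903981 to 107923610, minus strand, GRCm38), was lowest in EM among the spleen subsets. CM libraries had 16.34, 16.19 and 16.07, naive libraries 15.83, 15.52 and 15.71, and EM libraries 15.10, 15.20 and 15.10. The 3 subsets did not overlap, with EM the lowest. EM minus CM was -1.07 ± 0.29 (limma adjusted p = 0.0171), a call lost on leaving out EM replicate 3 (limma adjusted p = 0.0533), while EM and CM against naive gave -0.55 ± 0.29 and 0.51 ± 0.29 (limma adjusted p = 0.184 and 0.243). Slc25a20, the carrier that exchanges acylcarnitine across the inner membrane, was higher in EM than in CM by 0.72 and than in naive cells by 0.85, opposite in sign to Cpt2. In the same comparison of EM with CM, 15.4% of all genes were called and 7.19% were called lower. There, 2 of 6 epithelial markers (Krt8 at -4.08) and 3 of 9 myeloid markers (C1qb at -4.67) were lower and 1 myeloid marker was higher. The part of these markers in the Cpt2 and Fabp5 differences was not tested.

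In tumors Cpt2 varied widely within subsets, from 15.03 to 16.55 in DP, 15.04 to 16.61 in SP and 14.61 to 15.77 in DN. DP libraries averaged 15.77, against 15.69 in naive and 16.20 in CM spleen cells, and were not tested against these. DP was above spleen EM, the lowest spleen group, by 0.63 ± 0.23 (limma adjusted p = 0.0423), where 29.7% of all genes were called and 13.8% higher. The call rested on single libraries and on week 1: it was lost without any 1 of the 3 EM libraries or week 6 DP replicate 1 (limma adjusted p between 0.052 and 0.123), and over weeks 2, 4 and 6 the difference was 0.46 (limma adjusted p = 0.151). DP minus DN, at 0.41 ± 0.15, was not called (limma adjusted p = 0.0651). It was 1.11 at week 1, 0.39 at week 2, -0.53 at week 4 and 0.66 at week 6. Under ICB the Cpt2 values were 6.61 to 6.96 in DP, 6.70 to 7.08 in SP and 6.86 and 6.92 in DN, all overlapping.

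Among the 3 dehydrogenases, Acadl was higher in DP and SP tumor cells than in spleen EM. Acadl overlaps the processed pseudogene Gm15793 on the same strand over 495 bases, and the part of this overlap in its values was not tested. EM libraries had 6.47, 6.28 and 6.60, naive libraries 6.41, 6.17 and 6.15, and CM libraries 6.19, 6.19 and 6.16. All 13 DP libraries, from 6.82 up to 7.85, and all 11 SP libraries, from 6.68 to 7.17, lay above all 9 spleen libraries. DP exceeded EM by 0.69 ± 0.12 (limma adjusted p = 0.000204) and SP exceeded EM by 0.47 ± 0.12 (limma adjusted p = 0.00683), where 29.4% of all genes were called for SP and 15.9% higher. Over weeks 2, 4 and 6 these differences were 0.50 and 0.48 and remained called. DN overlapped the spleen groups, from 6.26 to 7.30 with a median of 6.69, and its difference from EM was not called (0.27 ± 0.12, limma adjusted p = 0.133). In each of the 3 comparisons with EM, 5 of 6 epithelial markers were higher in tumor cells, with Krt8 at 4.96, 5.18 and 4.95 for DP, SP and DN. In these comparisons 13.8%, 15.9% and 10.2% of all genes were called higher. The part of the epithelial markers in the Acadl difference was not tested.

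Acadl was also higher in DP than in DN, by 0.43 ± 0.08 (limma adjusted p = 0.000778; 8.81% of all genes were called higher). Most of this came from week 1, where DP minus DN was 1.26. It was -0.067, 0.61 and -0.10 at weeks 2, 4 and 6, and without week 1 the pooled difference was 0.15 (limma adjusted p = 0.252). With the code run as a term it was 0.42 and not called (limma adjusted p = 0.175). SP minus DN was 0.20 ± 0.08 (limma adjusted p = 0.0942).

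Under ICB, Acadl was the 1 member called. DN libraries had 10.81 and 10.79, DP libraries 11.47, 11.48 and 11.50, and SP libraries 11.34, 11.28 and 11.35. The subsets did not overlap, with DN the lowest and DP the highest. DP exceeded DN by 0.68 ± 0.07 (limma adjusted p = 0.0137), where 7.49% of all genes were called and 4.47% higher, and SP exceeded DN by 0.52 ± 0.07 (limma adjusted p = 0.031), where 3.83% were called and 2.47% higher and where Cd69 RNA overlapped between the subsets. Without DN replicate 1 or 2, SP minus DN was 0.54 and 0.51, and its call was lost. The remaining DN library was then taken to vary like DP and SP. Without limma's variance trend neither difference from DN was called (limma adjusted p = 0.0836 and 0.149). That fit called 0% of all genes in both comparisons, so it cannot set Acadl apart from other genes. DP minus SP, at 0.16 ± 0.06, was not called (limma adjusted p = 0.394; 0.0372% of all genes called). The myeloid score averaged 1.04 in DP, -0.30 in SP and -1.11 in DN, and its part in the Acadl difference was not tested. The other 7 genes beside Acadl and Fabp5 differed between ICB subsets by -0.17 to 0.15.

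Acadm, the medium-chain dehydrogenase (chromosome 3, 153922357 to 153944632, minus strand, GRCm38), was highest in naive spleen cells. Naive libraries had 12.26, 12.15 and 12.18, above all other 40 untreated libraries, which ran from 10.56 to 11.89. CM libraries had 11.55, 11.48 and 11.44 and EM libraries 11.80, 11.57 and 11.89. The 3 spleen subsets did not overlap. CM was lower than naive by -0.71 ± 0.15 (limma adjusted p = 0.00188), where 18.8% of all genes were called and 8.7% lower. EM was lower than naive by -0.45 ± 0.15 (limma adjusted p = 0.0318), where 24.6% were called and 12% lower. The EM call was lost without EM replicate 1 or 2 or naive replicate 1 or 3 (limma adjusted p between 0.0549 and 0.0989).

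Tumor cells had lower Acadm than spleen EM cells. CM libraries, at 11.44 to 11.55, overlapped SP and DN libraries and lay above all DP libraries. The tumor subsets were not tested against CM. Against EM the difference of DP was -0.58 ± 0.12 (limma adjusted p = 0.000765), that of SP -0.69 ± 0.12 (limma adjusted p = 0.000202) and that of DN -0.51 ± 0.12 (limma adjusted p = 0.00486), where 16%, 13.5% and 10.5% of all genes were called lower. All 13 DP libraries, at 10.93 to 11.40, and all 11 SP libraries, at 10.56 to 11.53, were below the lowest EM library, and DN, at 10.99 to 11.61, overlapped EM through 1 week 6 library. The lowest values of all were those of the 2 week 4 SP libraries, at 10.82 and 10.56. With the code run as a term the DN difference was -0.45 and not called (limma adjusted p = 0.204). No tumor subset differed from another or changed from week 1 to week 6 by the test, and the ICB values, from 8.85 to 9.50, overlapped between subsets. Acadm and Acadl thus had opposite signs against spleen EM within the same DP and SP libraries.

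Acadvl, the very long-chain dehydrogenase (chromosome 11, 70010183 to 70015411, minus strand, GRCm38), was higher in DN cells at week 6 than at week 1. Week 1 DN libraries had 5.60 and 5.78 and week 6 DN libraries 6.43 and 6.59, the latter among the highest 3 of the 43 untreated libraries together with a week 6 SP library at 6.44. Week 2 DN libraries ran from 5.79 to 6.10 and week 4 DN libraries from 5.66 to 5.79, so that week 4 lay near week 1. The increase was 0.82 ± 0.17 (limma adjusted p = 0.00691), where 5.79% of all genes were called and 4.98% higher. It was lost without week 1 DN replicate 1 (limma adjusted p = 0.0844) or week 6 DN replicate 2 (limma adjusted p = 0.056), each of which left 1 library in an arm that was taken to vary like the other groups. With only the 4 libraries compared in the fit it was not called (limma adjusted p = 0.144), nor with the code run as a term (0.70, limma adjusted p = 0.445). Both of these fits called 0% of all genes, so they cannot set Acadvl apart from other genes. Week 6 minus week 2 in DN was 0.52 and not called. The same weeks saw the epithelium score in DN go from -1.05 to 1.71, and 4 of 6 epithelial markers and 2 of 9 myeloid markers rose, with Epcam at 3.70 and Apoe at 1.79. The part of such cells in it was not tested. Week 1 DN libraries carry codes of the third run and week 6 DN libraries codes of the second. In DN these runs meet only at week 4. There 1 third-run library had 5.66, and 2 second-run libraries, the unusually alike replicates 1 and 2, had 5.78 and 5.79. What separates run from week in DN thus rests on few libraries. Acadvl overlaps Dvl2, on the other strand, over 2119 bases; Dvl2 moved by 0.47 (limma adjusted p = 0.239), and whether the counting used strand is not given in the sources used here. Other lipid genes that rose in DN were Fads1, a fatty acid desaturase, by 1.37, and Lipa, the lysosomal acid lipase, by 1.07, each the only gene of its list called.

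**Figure D4:**
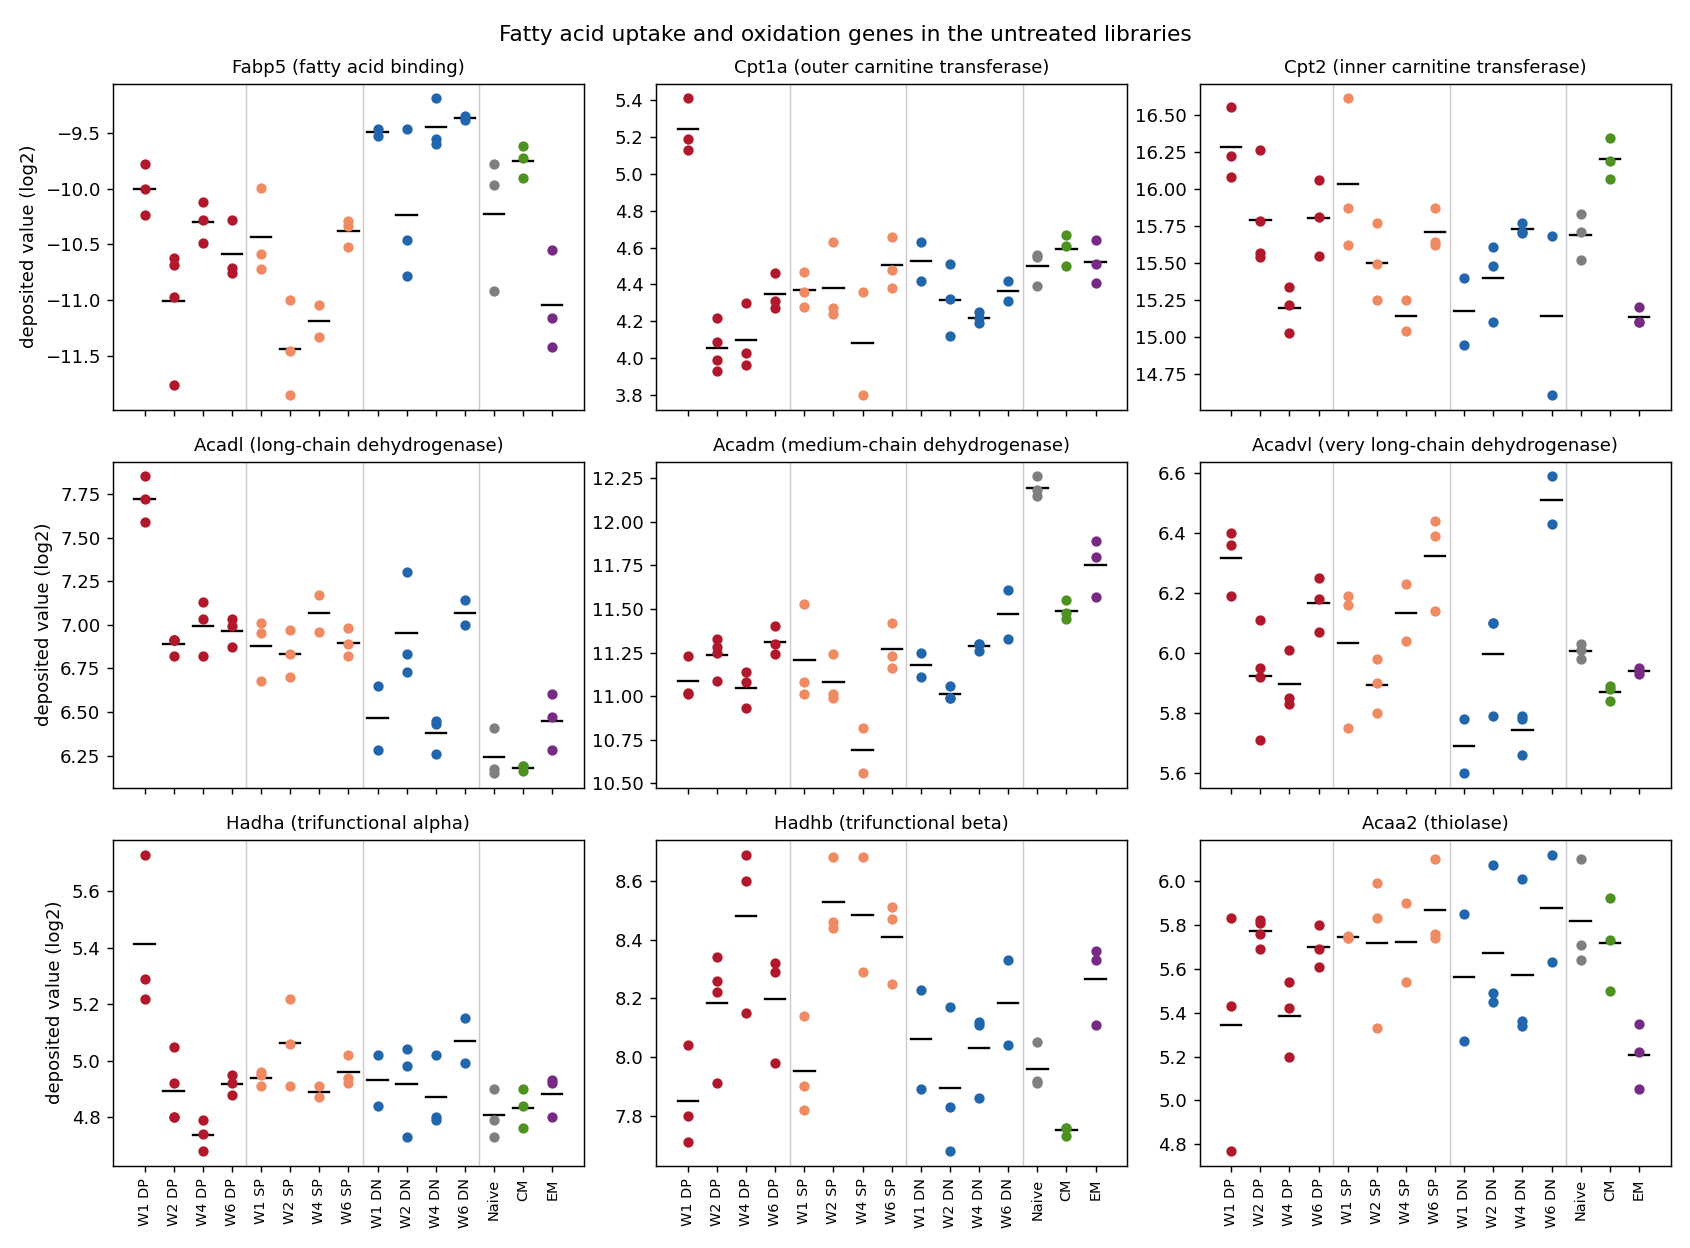
Deposited log2 values of each of the 9 genes in the 43 untreated libraries by group; points are libraries, bars are group means, colors give the subset, and the vertical scale differs between panels. Week 1 DP libraries are the 3 highest for Cpt1a, Acadl and Hadha, and naive spleen libraries the 3 highest for Acadm.

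The paired subunits of the trifunctional protein did not move together. Hadhb (chromosome 5, 30155248 to 30184593, plus strand, GRCm38) is divergent from Hadha, with 85 bases between the annotated gene ends, and their 300-base promoter windows share 228 bases. Over the 15 group means Hadha correlated with Cpt1a at 0.74 and with Acadl at 0.70, whereas the week 1 DP libraries that were highest for Hadha had 7.71, 7.80 and 8.04 for Hadhb, in the lower part of its range of 7.68 to 8.69. These correlations describe group means that share libraries and normalization. Hadhb was higher in SP than in DN, by 0.30 ± 0.10 (limma adjusted p = 0.0376; 11% of all genes were called higher). SP values ran from 7.82 to 8.68 and DN values from 7.68 to 8.33. Leaving out any 1 of 8 libraries ended the call (limma adjusted p between 0.051 and 0.0873) and with the code run as a term (0.35, limma adjusted p = 0.438). One transcript of Hadhb matches the processed pseudogene Gm13910 at 99.1% identity over 346 bases, so some of its reads may be uncertain in origin.

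Within spleen, Hadhb had 7.76, 7.73 and 7.76 in CM, 7.91, 8.05 and 7.92 in naive and 8.33, 8.11 and 8.36 in EM cells. The 3 groups did not overlap, but EM minus CM, at 0.52 ± 0.18, was not called (limma adjusted p = 0.0586). Hadha ranged only from 4.73 to 4.93 over the 9 spleen libraries. No spleen comparison called it.

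Acaa2, the thiolase that releases acetyl-CoA in the last step (chromosome 18, 74779197 to 74806208, plus strand, GRCm38), was called in no comparison. Spleen EM libraries had 5.22, 5.35 and 5.05, below all CM libraries (5.50, 5.73 and 5.92) and all naive libraries (5.64, 6.10 and 5.71). Among the 15 comparisons its largest difference was EM minus naive at -0.61 ± 0.27 (limma adjusted p = 0.104). SP minus EM, at 0.56 ± 0.21, had a limma adjusted p of 0.0546. The SD within groups, raised to match the reduced degrees of freedom, was 0.34 for Acaa2. Fabp5 had 0.48 and Cpt2 0.35, while Hadhb had 0.23 and Cpt1a, Acadl, Acadm, Acadvl and Hadha had 0.15 to 0.19. Week 1 DP replicate 2 had the lowest value of all libraries, 4.77, where its fellow libraries had 5.43 and 5.83.

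Other lipid genes were counted against spleen EM, where 29.7% of all genes were called in DP, 29.4% in SP and 20.6% in DN. Of 7 genes of lipid storage, 2 were higher in DP and none lower: Plin2, a coat protein of lipid droplets, by 1.21 ± 0.24 (limma adjusted p = 0.00087), and Dgat1, which makes triglyceride, by 1.17 ± 0.23 (limma adjusted p = 0.000744). The same 2 genes were the ones called in SP (0.91 and 0.98) and in DN (1.38 and 1.01). Of 15 other beta-oxidation enzymes 2 were higher in DP and none lower, Acadsb by 0.49 and Acad9 by 0.33. In DP against EM 13.8% of all genes were called higher and 16% lower. Of the peroxisomal and regulator lists only called genes with the largest differences are named, without counts. The peroxisomal genes Crot and Scp2 were lower in DP, by -0.53 and -0.41. Ppard, a nuclear receptor that turns on fatty acid oxidation genes, was higher in DP by 0.55, and Tfam lower by -0.53. Within spleen, EM against naive cells had 4 of 7 storage genes lower and none higher, where 24.6% of all genes were called and 12% lower, with Plin2 at -1.61, Lipa at -1.54 and Lipe, hormone-sensitive lipase, at -1.01. Of the other beta-oxidation enzymes, Etfb, the partner of Etfa, was higher in EM by 0.77 and Acadsb lower by -0.69.

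The genes whose 15 group means in the untreated table followed each member most closely are given as a description. For Acadl they were Cep170b (Pearson r = 0.94), Mea1 (0.93) and Atpif1 (0.93), for Cpt1a Dcaf11 (0.92), Rnf181 (0.86) and Ndufa7 (0.85), and for Acadm Arl6ip5 (0.94), Smim14 (0.91) and Slc12a7 (0.91). Fabp5 was followed by AC160929.1 (0.88), C130036L24Rik (0.85) and Lmbr1l (0.84), and Hadha by Ehmt2 (0.91), Svil (0.90) and Ddb1 (0.89). Acadvl was followed by Mex3a, Sel1l and Ezr (0.88 to 0.89), Hadhb by Arih2, Isca1 and Plekha3 (0.86 to 0.89), Cpt2 by Alg3, 4933439C10Rik and Isoc2b (0.79 to 0.84) and Acaa2 by Hdac3, Nup214 and Gm5148 (0.81 to 0.84). Between members the highest values after Cpt1a with Hadha and Acadl with Hadha were Acadl with Acadvl (0.64), and the lowest Cpt2 with Hadhb (-0.60), Acadl with Acadm (-0.59) and Fabp5 with Hadhb (-0.59).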

How the data were processed

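Sorted CD8+ T cells gave 10 ng of RNA per library for a 3' tag kit (QuantSeq FWD) with single-end reads of 75 bp, per the labels' protocols. HISAT2, HTSeq and mm10 appear in the submitters' processing notes with no version. The authors deposited normalized values in 2 tables, read here as log2; the log base is inferred from negative values and a narrow span, and the normalization is not given in the sources used here. Depth is unknown, so no counting error or floor is given. After centring, the untreated values had rank 32 of a possible 42 and the ICB values 4 of 7, so directions of variation had been removed from both.

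For each table limma 3.58.1 (R 4.3.3, statmod 1.5.0) fitted group means with the trend and robust options. The spread was shared by all groups, weeks were weighted equally, and adjustment ran over all genes. Degrees of freedom were cut to the rank of the residuals (18 in place of 28 for untreated libraries, 2 in place of 5 under ICB) and variances raised to match. The tests were tested on simulated data; where removed directions overlap the groups, p-values are too small. The p-values measure spread between libraries that the labels do not tie to animals. The members, gene lists, comparisons and tests were chosen with earlier results of these data known. All members are named; of other listed pathway genes at most the 3 per list with the largest difference among those called are named, and some are not reported here. Marker lists for T cells, myeloid cells, tumor epithelium, adipocytes, stroma and endothelium, B cells, and erythroid cells and platelets were scored alongside; lists with no value printed beside a result are in the closing section. Alternatives changed degrees of freedom, trend, scaling, filter, replicate block, samples in the fit, code run, weeks used and single libraries; using week 2 as the start and averaging the alike week 4 DN libraries were added after seeing the data. Gene positions come from GENCODE M21.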

Additional observations from a re-analysis of the deposited data

Results flagged for a closer look

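Acadl in the 4 week 2 DP libraries was flagged because replicate 3, at 6.82, lay apart from 6.91, 6.91 and 6.91, with a gap of 0.982 of the group's range. Chance flags about 1 in 20 groups, and 9 such ratios were computed.

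Differences of differences between tumor subsets were flagged where the test of the difference itself passed, for 13 of 54 tested (limma, adjusted over all genes). For week 6 minus week 1, the change of DP minus that of SP was -1.03 for Cpt1a and -0.77 for Acadl. The change of DP minus that of DN was -0.73 for Cpt1a, -1.36 for Acadl, -0.97 for Acadvl and -0.64 for Hadha. For week 1 minus the mean of weeks 2 to 6, the difference of DP from SP was larger by 1.03 for Cpt1a, 0.83 for Acadl and 0.59 for Hadha. The difference of DP from DN was larger by 0.85 for Cpt1a, 1.11 for Acadl, 0.71 for Acadvl and 0.59 for Hadha. None of the 9 genes passed for SP against DN, where 4.66% and 6.53% of all genes passed. All 13 include the 3 week 1 DP libraries, and the 8 against DN also include DN libraries. For week 6 minus week 1, Acadvl rose by 0.82 in DN and was -0.15 in DP, where it was not called, and Acadl was 0.60 in DN, not called.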

How the results depend on the processing

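The table gives no depth, so what depth limits cannot be read. Member calls changed mainly with the code run, the degrees of freedom, the scaling and the starting week; the cause was not tested. The share of all genes called moved too: over all comparisons fitted it was 14.5% for the values reported, 13.5% with the code run, 32.7% with unreduced degrees of freedom, 32.6% with quantile normalization, 24.8% with only the groups compared, 17.9% with median rescaling, 13.3% with no trend, 14.4% with the filter, 17.8% with the replicate block, 19.9% without week 1 and 0.537% with week 2 as the start. With the code run as a term, the number of members called was 0 in DP, SP and spleen EM against DN and in DN from week 1 to 6, where 1.88%, 1.1%, 2.49% and 0% of all genes were called. With week 2 as the start it was 0 in DP and in DN, and the DP differences of Acadl, Cpt1a and Hadha turned to 0.077, 0.29 and 0.025. Without week 1 it was 1 in DP against DN. With unreduced degrees of freedom it was 4 in DN and SP against EM and SP against DN, 3 in EM against naive, 2 in DN over time, ICB DP against DN and ICB SP against DN, and 1 in DP against SP, SP over time and ICB DP against SP. Quantile normalization gave 4 in SP against DN, SP against EM and EM against naive, 2 in DP against SP, DN over time and both ICB comparisons with DN, and 1 in SP over time and ICB DP against SP; Fabp5 in SP against EM turned to -0.61. Median rescaling gave 2 in both ICB comparisons with DN, where 22.5% (DP) and 16% (SP) of all genes were called. No trend gave 0 in both, where 0% of all genes were called. Fits of only the groups compared gave 4 in EM against CM, 3 in CM and EM against naive, 2 in ICB DP against DN, 1 in DP against SP and SP over time, and 0 in DN over time. In DN over time that fit called 0% of all genes. The filter at a value of 0 drops Fabp5 and gave 1 in DP, SP and EM against DN and EM against CM. The replicate block gave 2 in DN over time and changed no other count by over 1.5 times. Over all groups and both tables, same-numbered libraries had residual correlations with a median of 0.0142, and 13 of 46 pairs were above 0.1. The main fits therefore did not pair samples by number. Within each week, however, same-numbered untreated DP and SP libraries all correlated positively. Values ran from 0.00968 at week 6 to 0.861 at week 4. These DP and SP libraries may be paired, which the labels do not state and the tests of DP against SP ignored. The replicate block used a term per number across all weeks, so it does not account for pairs within a week.

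Leaving out single libraries gave 2 to 3 members called in DP against DN, DP against EM, SP against EM and DP over time, 1 to 3 in SP against DN, 0 to 3 in EM against CM, 0 to 2 in EM against naive and DN over time, 0 to 1 in ICB SP against DN, 2 in DN against EM, 1 in CM against naive and ICB DP against DN, and 0 in DP against SP, SP over time and ICB DP against SP. In these fits the share of all genes called ran from 16.7% to 22.1% in DP against DN, 16.1% to 20.8% in SP against DN, 18% to 32.8% in DP against EM, 17.1% to 31.1% in SP against EM, 8.96% to 23.2% in DN against EM, 18.9% to 24.4% in DP over time, 1.03% to 2.01% in SP over time, 0.862% to 8.49% in DN over time, 7.39% to 18.7% in EM against CM, 16.2% to 28.2% in EM against naive, 12.4% to 20.4% in CM against naive, 2.93% to 4.79% in DP against SP, 2.13% to 14% in ICB DP against DN, 0.81% to 7.97% in ICB SP against DN and 0% to 0.23% in ICB DP against SP.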

Other observations

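Markers of cells other than T cells moved in the comparisons above and are given as counts. Erythroid markers, 2 of 8 measured, were both lower in DP than in SP, in DN and in spleen EM, with Hba-a2 at -2.55, -2.04 and -3.05. In these comparisons 3.48%, 19.5% and 29.7% of all genes were called in either direction. B-cell markers, 3 of 6 measured, were all lower in DP, SP and DN than in spleen EM, with Ighm at -1.84, -1.95 and -2.35. Of all genes 16%, 13.5% and 10.5% were called lower there. Of 3 measured stroma and endothelium markers Col3a1 was lower at week 6 than at week 1 in DP, by -2.62, where 9.37% of all genes were called lower. Under ICB 2 of 6 were higher in DP and in SP than in DN, with Cdh5 at 3.27 and 1.85. Of all genes 4.47% and 2.47% were called higher in these 2 ICB comparisons. Myeloid markers in untreated DP against DN were higher for 3 of 9, with Lyz2 at 1.17, where 8.81% of all genes were called higher. The part of these markers in the values of the fatty acid genes was not tested.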
